A study of Mus musculus with 24 samples.

Results

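Kit, Flt3, Myb, Sox4, Rag1, Vpreb3 and Xcr1 were followed across 23 B cell lymphomas of mice that carry a Bcl6 transgene. These 7 genes were taken by name from the 11140 genes of the count table. All 7 have a row, and all 7 passed the filter on low counts that left 11020 genes for testing. Apart from Xcr1 they belong to the programme of blood progenitors and early B cells, and the question asked of them was whether precursor genes rise together in the same lymphomas.

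The RNA was that of B lymphoma cells purified out of C57BL/6 spleens. The T cell deficient group held 11 lymphomas of genotype Bcl6Tg/+ CD3Epsilon-/-, in which the gene of the CD3 epsilon chain, which T cells need to develop, is deleted. The T cell sufficient group held 12 lymphomas of genotype Bcl6Tg/+. Every lymphoma thus carries the transgene, and no cells without it were analysed here. The promoter that drives the transgene, the age of the mice and the clonality of the lymphomas were not given in the sources used here. The study asked how T cells hold back the growth of B cell lymphomas.

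There were 2 sequencing runs. In run 1 were 5 T cell deficient and 7 T cell sufficient libraries, and in run 2 were 6 T cell deficient and 5 T cell sufficient libraries. The library totals (M, mega) lay between 11.8 and 28.1 M counts in the T cell deficient group and between 7.58 and 30.6 M counts in the T cell sufficient group. A count of 3 was worth 0.0980 to 0.396 CPM (the count scaled to 1 M counts of its library), which covers counting error only. The B cell genes Pax5 and Ms4a1 were high in both groups, at 128 CPM ± 54.2 and 2066 CPM ± 634 in T cell deficient lymphomas and 124 CPM ± 47.1 and 2430 CPM ± 884 in T cell sufficient lymphomas (SD, n = 11 and 12). Cd3e, the gene labelled as deleted, averaged 2.47 CPM ± 1.73 in T cell deficient and 0.966 CPM ± 0.754 in T cell sufficient lymphomas (edgeR adjusted p = 0.179). The table holds 1 value for the whole gene and does not show which part was deleted, so the groups are named by their labels. Each lymphoma is numbered as a sample of its own, but the labels name no animals, so p-values measure the spread between these samples. Unless marked as SE, a value after ± is the SD over 11 T cell deficient or 12 T cell sufficient lymphomas.

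KIT and FLT3 are receptor tyrosine kinases of blood progenitors. Their ligands, made from Kitl and Flt3l, keep progenitors alive and dividing, and mice without FLT3 signalling make few early B cells. MYB and SOX4 are transcription factors that early B cells need, RAG1 is a subunit of the recombinase that joins immunoglobulin gene segments, and VPREB3 is a small protein that binds immunoglobulin chains in the secretory pathway of precursor and germinal centre B cells. XCR1, the receptor for the chemokine XCL1, is best known from type 1 conventional dendritic cells, which also need FLT3. Mature B cells normally have little KIT or RAG1.

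Kit, Flt3, Vpreb3 and Xcr1 were higher in the T cell deficient lymphomas, and Myb, Sox4 and Rag1 did not pass the test. In edgeR's quasi-likelihood test over both runs with run as a term, 4 of the 7 genes had a Benjamini-Hochberg adjusted p under 0.05 and a higher level, where 10.6% of all genes tested did. None of the 7 was lower, against 11.7% of all genes tested. They were picked with results of these data known, so these shares describe them and do not test them as a group. Kit and Xcr1 also reached the lowest level seen among the listed genes only through the T cell deficient group, as described with the processing.

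**Figure D1:**
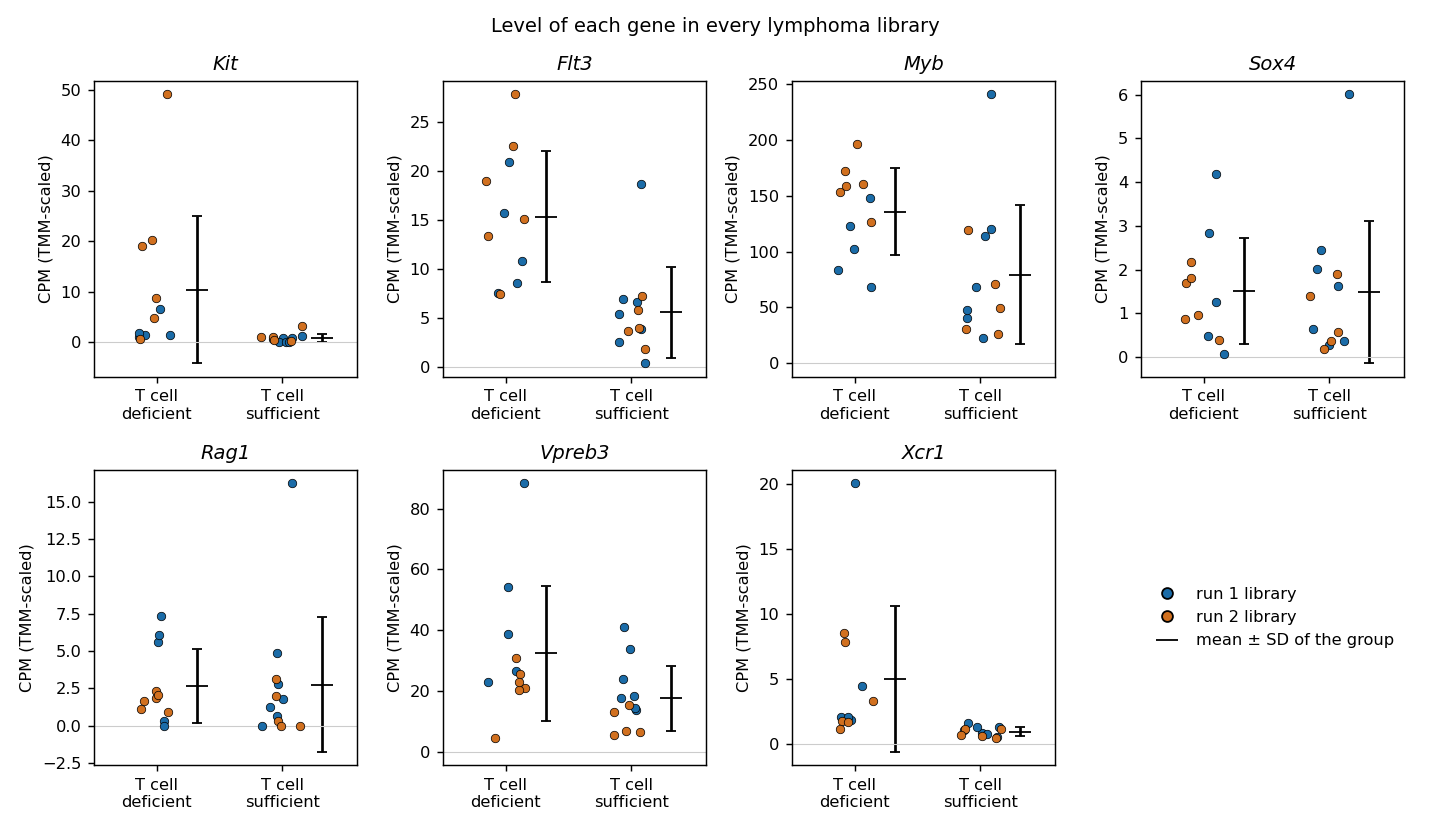
Level of each gene in every lymphoma (CPM after TMM scaling, linear axis from about 0), T cell deficient on the left and T cell sufficient on the right of each panel, coloured by sequencing run. Bars beside the points give the mean ± SD (n = 11 and 12). Kit reaches 49.1 CPM in 1 T cell deficient lymphoma and stays at or under 3.19 CPM in T cell sufficient ones.

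Of the 2 receptors, Kit (chromosome 5, 75574916 to 75656722, plus strand, GRCm38) was the more unequal. Its lowest, median and highest levels were 0.736, 4.89 and 49.1 CPM in T cell deficient lymphomas and 0, 0.763 and 3.19 CPM in T cell sufficient lymphomas. In 6 T cell deficient lymphomas Kit lay above every T cell sufficient one, while the other 5 lay inside the range of the T cell sufficient group.

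Kit averaged 10.5 CPM ± 14.6 in T cell deficient and 0.835 CPM ± 0.849 in T cell sufficient lymphomas (SD, n = 11 and 12), a log2 fold change of 2.93 ± 0.69 (SE, edgeR adjusted p = 0.00535). The SD exceeded the mean in both groups. T cell deficient lymphomas 4, 6 and 3, at 49.1, 20.2 and 19.1 CPM, held 76.9% of the summed Kit level of their group. T cell deficient lymphomas 5 and 7 had 0.736 and 0.975 CPM, near the median of the T cell sufficient group. In T cell sufficient lymphoma 2 no Kit read was counted, where 3 counts would be 0.185 CPM.

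Flt3 (chromosome 5, 147330741 to 147400489, minus strand) rose more evenly. It had 7.43, 15.1 and 27.8 CPM (lowest, median and highest) in T cell deficient lymphomas, against 0.375, 4.67 and 18.7 CPM in T cell sufficient lymphomas. The groups overlapped only through T cell sufficient lymphoma 4, the one at 18.7 CPM, and the other 11 T cell sufficient lymphomas were below every T cell deficient one. Means were 15.3 CPM ± 6.67 in T cell deficient and 5.58 CPM ± 4.63 in T cell sufficient lymphomas (SD, n = 11 and 12), a log2 fold change of 1.47 ± 0.42 (SE, edgeR adjusted p = 0.0155). Over all genes tested, 0.0907% had every T cell deficient library above every T cell sufficient one, and none of the 7 genes was among them.

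The ligand genes did not pass the test. Kitl averaged 0.492 CPM ± 0.439 in T cell deficient and 1.69 CPM ± 2.38 in T cell sufficient lymphomas (edgeR adjusted p = 0.0791), and Flt3l averaged 11.9 CPM ± 2.64 in T cell deficient and 16.1 CPM ± 7.70 in T cell sufficient lymphomas (adjusted p = 0.0904). Both point estimates lay on the side opposite to the receptors. Of 31 tested genes that carry KIT and FLT3 signals, 1 was higher, 7 were lower and 23 were not called. Pik3r1, a regulatory subunit of PI3 kinase, fell by 0.89 ± 0.15 (SE) on the log2 scale (edgeR adjusted p = 0.000659), and Lyn, a Src family kinase that also acts below the B cell receptor, fell by 0.64 ± 0.14 (adjusted p = 0.00341).

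Among the transcription factors, Myb (chromosome 10, 21124935 to 21160984, minus strand) was by far the more abundant. Per kilobase of exon its mean level was 15.2 CPM in T cell deficient and 8.88 CPM in T cell sufficient lymphomas, where Sox4 (chromosome 13, 28948919 to 28953713, minus strand) had 0.317 CPM in T cell deficient and 0.310 CPM in T cell sufficient lymphomas. Myb had 68.7, 148 and 196 CPM (lowest, median and highest) in T cell deficient lymphomas and 22.4, 58.9 and 241 CPM in T cell sufficient lymphomas. The highest library of all was T cell sufficient lymphoma 6, and 7 T cell sufficient lymphomas were below every T cell deficient one.

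For Myb the log2 fold change of 0.78 ± 0.35 (SE) missed the threshold (edgeR adjusted p = 0.113). Without T cell sufficient lymphoma 6 it passed, with a log2 fold change of 1.02 and an adjusted p of 0.0171. Myb was also called in the authors' deposited table, with a log2 fold change of 1.04 and an adjusted p of 0.0249, and by limma-voom here (adjusted p = 0.0256), which called 11.2% of all genes higher. Sox4 had 0.0730, 1.26 and 4.18 CPM in T cell deficient lymphomas and 0.183, 1.02 and 6.00 CPM in T cell sufficient lymphomas. The groups lay over one another (log2 fold change 0.20 ± 0.58 SE, 95% interval -0.93 to 1.34, edgeR adjusted p = 0.829), and the interval includes a rise as large as that of Vpreb3. Of 17 other genes listed as partners or targets of MYB and SOX4, 3 were higher and 2 were lower. Ezh2, the polycomb methyltransferase, rose by 0.84 ± 0.15 (SE) on the log2 scale (edgeR adjusted p = 0.00104), while the tetraspanin gene Cd53 fell by 1.84 ± 0.25 (adjusted p = 0.000151) and the survival gene Bcl2 fell by 1.66 ± 0.42 (adjusted p = 0.00800).

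The genes of the precursor B cell stage split. Vpreb3 (chromosome 10, 75943057 to 75949657, plus strand) was higher and Rag1 (chromosome 2, 101638282 to 101649501, minus strand) was not. Vpreb3 had 4.55, 25.5 and 88.3 CPM (lowest, median and highest) in T cell deficient lymphomas and 5.73, 14.9 and 41.1 CPM in T cell sufficient lymphomas. The levels of 88.3 and 54.4 CPM in T cell deficient lymphomas 9 and 8 were above every T cell sufficient one, and the lowest library of all, T cell deficient lymphoma 6, belonged to the same group. Means were 32.4 CPM ± 22.3 in T cell deficient and 17.6 CPM ± 10.8 in T cell sufficient lymphomas (SD, n = 11 and 12), a log2 fold change of 1.05 ± 0.29 (SE, edgeR adjusted p = 0.0135). This call was lost in limma-voom (log2 fold change 0.85, adjusted p = 0.0683), without the run term (adjusted p = 0.106, where 7.13% of all genes were called higher) and in the authors' deposited table (log2 fold change 0.85, adjusted p = 0.105). Per kilobase of exon Vpreb3 was the most abundant of the 7 genes, at 37.7 CPM in T cell deficient and 20.5 CPM in T cell sufficient lymphomas.

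Rag1 had 0, 1.85 and 7.34 CPM (lowest, median and highest) in T cell deficient lymphomas and 0, 1.49 and 16.2 CPM in T cell sufficient lymphomas. No read was counted in T cell deficient lymphoma 9 and in T cell sufficient lymphomas 2, 8 and 12, and the highest level was in T cell sufficient lymphoma 5. The log2 fold change was 0.27 ± 0.85 (SE, 95% interval -1.40 to 1.94, edgeR adjusted p = 0.843), an interval that includes a rise as large as that of Flt3. Of the 14 other pro-B and pre-B cell genes tested, none was higher, 3 were lower and 11 were not called. Ly6d, a surface protein gene that appears as lymphoid progenitors commit to the B lineage, fell by 2.30 ± 0.35 (SE) on the log2 scale (edgeR adjusted p = 0.000255). Cplx2 fell by 1.70 ± 0.46 (adjusted p = 0.0128) and Il2ra, the interleukin 2 receptor chain of the late pre-B stage, fell by 2.22 ± 0.76 (adjusted p = 0.0391). Il7r, Rag2 and Vpreb2 were not analysed here.

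Xcr1 (chromosome 9, 123852315 to 123862029, minus strand) separated the groups most clearly of the 7. It had 1.17, 2.08 and 20.1 CPM (lowest, median and highest) in T cell deficient lymphomas and 0.464, 0.995 and 1.62 CPM in T cell sufficient lymphomas. In 10 T cell deficient lymphomas Xcr1 lay above every T cell sufficient one, T cell deficient lymphoma 4 being the exception. Means were 5.01 CPM ± 5.60 in T cell deficient and 0.979 CPM ± 0.364 in T cell sufficient lymphomas (SD, n = 11 and 12), a log2 fold change of 2.39 ± 0.44 (SE, edgeR adjusted p = 0.00110). T cell deficient lymphoma 8 alone held 36.5% of the summed level of its group.

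In bulk RNA, more cells of a type and more RNA per cell cannot be told apart, so markers of other cells are given beside these genes. Of 7 other type 1 dendritic cell genes tested, none was higher and 3 were lower, among them Cadm1, an adhesion protein gene (log2 fold change -3.33 ± 0.98 SE, edgeR adjusted p = 0.0195). Their summed level was 1106 to 2230 CPM in T cell deficient and 1217 to 2818 CPM in T cell sufficient lymphomas. Wdfy4 and Irf8, neither called, made most of this sum. Wdfy4 averaged 938 CPM in T cell deficient and 1147 CPM in T cell sufficient lymphomas. Irf8 averaged 423 CPM in T cell deficient and 767 CPM in T cell sufficient lymphomas. Clec9a, Batf3 and Itgae were not analysed here. Of 9 other dendritic cell genes, 4 were lower and none was higher. Ly6d, at 120 CPM in T cell deficient and 591 CPM in T cell sufficient lymphomas, is among the lower ones. It is also counted in the pro-B and pre-B list above. Of 20 monocyte and macrophage genes, 4 were lower and none was higher. Of 12 erythroid, megakaryocyte and mast cell genes other than Kit, Tfrc alone was called (higher). Their summed level was 233 to 420 CPM in T cell deficient and 143 to 395 CPM in T cell sufficient lymphomas. Tfrc made most of it, at 293 CPM in T cell deficient and 215 CPM in T cell sufficient lymphomas. Gata1, Gata2 and Cpa3 were not analysed here. Of 13 T and NK cell genes, Zap70 and Klrb1c were higher and none was lower, with summed levels of 126 to 1363 CPM in T cell deficient and 139 to 624 CPM in T cell sufficient lymphomas. Most of that sum was Lck, at 466.3 CPM in T cell deficient and 315 CPM in T cell sufficient lymphomas (adjusted p = 0.204), and Zap70, at 174 CPM in T cell deficient and 16.3 CPM in T cell sufficient lymphomas (adjusted p = 0.0400). Cd3g averaged 1.92 CPM in T cell deficient and 5.64 CPM in T cell sufficient lymphomas. Of the 11 genes other than Lck and Zap70, Cd8b1 was the highest in T cell deficient lymphomas and Cd5 in T cell sufficient ones. Cd8b1 averaged 11.4 CPM in T cell deficient and 9.76 CPM in T cell sufficient lymphomas, with highest levels of 78.7 and 45.2 CPM. Cd5 averaged 8.82 CPM in T cell deficient and 20.05 CPM in T cell sufficient lymphomas. Cd3g, Cd8b1 and Cd5 were not called. The mean log2 CPM of each marker list, which is not the sum given above, was also set against each of the 7 genes. None of these 56 relations passed (Pearson, permutation within group and run, lowest adjusted p 0.202).

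Of 17 germinal centre genes 9 were higher and none was lower, and of 19 proliferation genes 15 were higher and none was lower. Summed levels were 2644 to 5763 CPM in T cell deficient and 1416 to 4113 CPM in T cell sufficient lymphomas for the germinal centre genes. For the proliferation genes they were 5373 to 8742 CPM in T cell deficient and 2215 to 5623 CPM in T cell sufficient lymphomas. Their part in the higher Kit, Flt3, Vpreb3 and Xcr1 was not tested. Of 10 B cell markers 4 were lower. Of 15 other progenitor receptors and factors none was higher, and Hhex, a homeobox factor of early progenitors, was lower (log2 fold change -3.03 ± 0.69 SE, adjusted p = 0.00430). Of 23 B lineage transcription factors 2 were higher and 2 lower, and of 13 V(D)J recombination and end joining genes 1 was higher and 1 lower. Tcf12, which encodes an E protein, rose by 0.45 ± 0.11 (adjusted p = 0.00746), and Hmgb2, a DNA bending protein gene, rose by 0.70 ± 0.15 (adjusted p = 0.00271), both on the log2 scale. Zeb2, a zinc finger repressor gene, fell by 1.497 ± 0.43 (adjusted p = 0.0164), Ets1, an ETS factor gene, fell by 0.97 ± 0.30 (adjusted p = 0.0270), and Poll, a DNA polymerase gene of end joining, fell by 0.50 ± 0.12 (adjusted p = 0.00667), on the same scale. Over the 207 different genes of these 14 lists, 33 were higher and 30 lower.

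Within the runs, the direction held for the 4 called genes and the sizes differed. In run 1 alone, edgeR called none of 11064 genes at an adjusted p under 0.05, while 1832 genes and 3 of the 7 had an unadjusted p under 0.05. In run 2 alone, 5.69% of genes were called higher, and Kit, Flt3, Myb and Xcr1 were among them. The 14 exact tests of 1 gene in 1 run that follow are unadjusted. Kit averaged 2.44 CPM ± 2.37 in T cell deficient and 0.571 CPM ± 0.476 in T cell sufficient lymphomas of run 1 (n = 5 and 7, exact permutation test of mean log2 CPM, two-sided, p = 0.0177). In run 2 it averaged 17.1 CPM ± 17.5 in T cell deficient and 1.20 CPM ± 1.16 in T cell sufficient lymphomas (n = 6 and 5, exact p = 0.0152). The 3 highest Kit libraries were all of run 2.

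Xcr1 was the only one of the 7 whose groups did not overlap in either run (exact p = 0.00126 in run 1, the smallest its 792 splits allow, and 0.00433 in run 2). Over all genes, every T cell deficient library lay above every T cell sufficient one in 1.22% of genes in run 1 and 4.28% in run 2. Flt3 did not overlap in run 2 (exact p = 0.00433, n = 6 and 5) and did in run 1 (exact p = 0.0657, n = 5 and 7). Myb likewise separated in run 2, at 127 to 196 CPM in T cell deficient and 26.6 to 120 CPM in T cell sufficient lymphomas (exact p = 0.00216, the smallest its 462 splits allow), and not in run 1 (exact p = 0.388). Vpreb3 gave exact p values of 0.0442 in run 1 and 0.0693 in run 2. Neither run separated Sox4 (exact p = 0.793 in run 1 and 0.262 in run 2) or Rag1 (lower exact p of the 2 runs 0.1255, in run 2). No interaction of group and run passed for the 7 genes (edgeR adjusted p from 0.762 to 0.981).

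**Figure D2:**
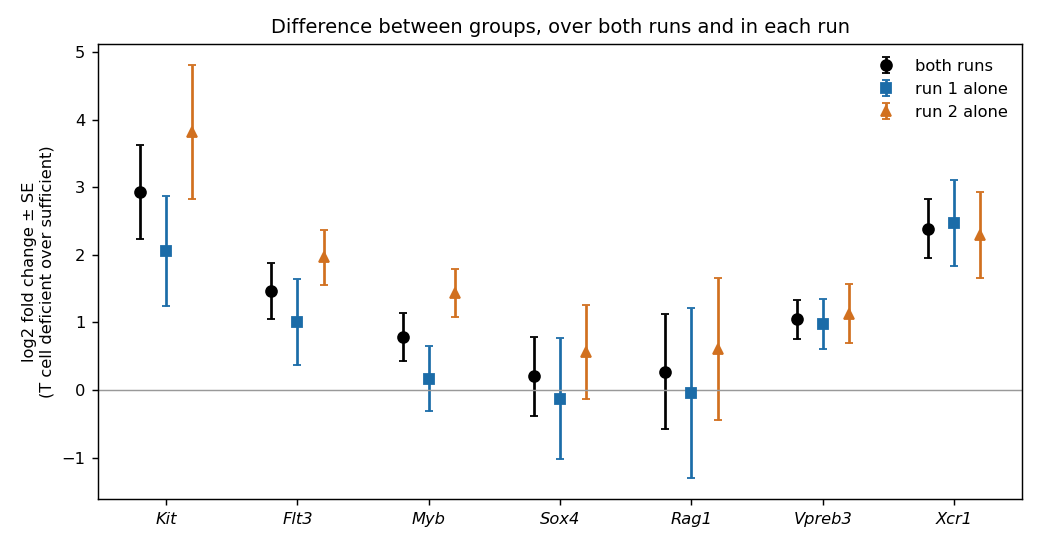
Log2 fold change (T cell deficient over T cell sufficient, ± SE from edgeR) of each gene over both runs (black circles), in run 1 alone (blue squares) and in run 2 alone (orange triangles). Kit, Flt3, Vpreb3 and Xcr1 lie above 0 in both runs, while Myb is at 0.17 in run 1 and 1.44 in run 2.

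A gene that rises on average need not rise in the same lymphomas as another. Ranked by CPM, no lymphoma had all 7 genes among its 6 highest libraries. T cell deficient lymphoma 10 came nearest, with Kit, Flt3, Rag1, Vpreb3 and Xcr1, and T cell deficient lymphomas 2 and 3 followed with 4 genes each. T cell deficient lymphoma 4, the highest in Kit, was 8th in Flt3 and 14th in Xcr1. T cell deficient lymphoma 6, the second in Kit, was last of 23 in Vpreb3. T cell deficient lymphoma 9, the highest in Vpreb3, was last in Sox4 and had no Rag1 read.

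**Figure D3:**
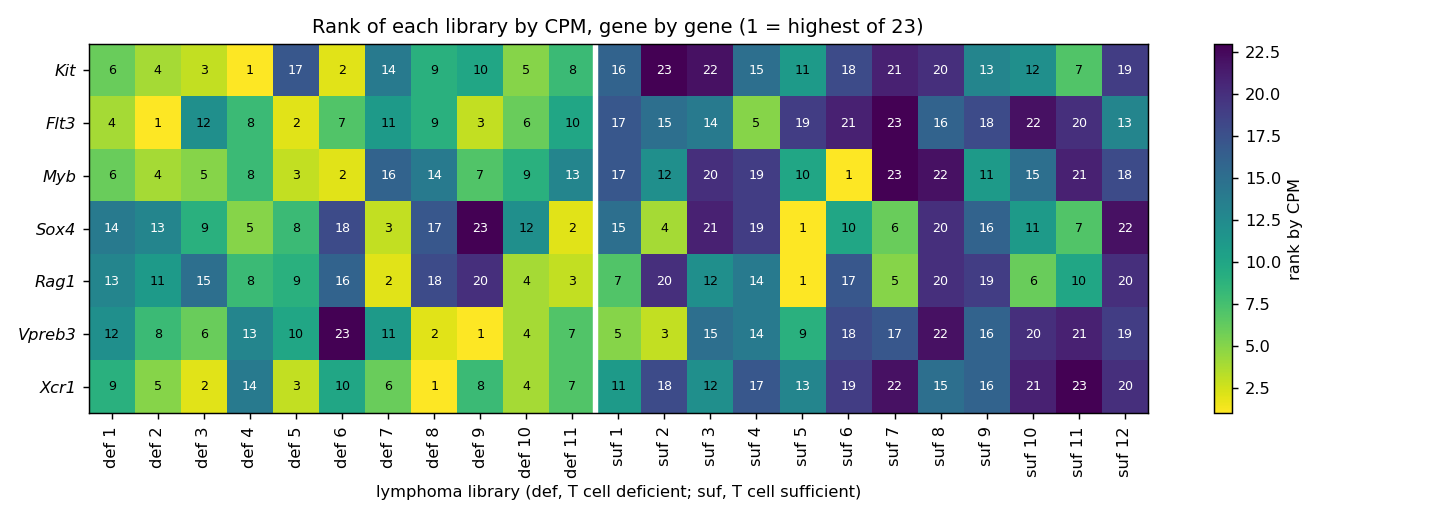
Rank of each lymphoma library by CPM for each gene (1, the highest of 23), T cell deficient lymphomas 1 to 11 on the left of the white line and T cell sufficient lymphomas 1 to 12 on the right. The low ranks of Kit, Flt3 and Xcr1 gather on the left, only in part in the same columns. T cell deficient lymphomas 2 and 10 are among the 6 highest libraries in each of these genes. T cell sufficient lymphoma 5 is first in both Sox4 and Rag1.

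For each of the 21 pairs of genes the log2 CPM, centred on the mean of each group within each run, were correlated over the 23 libraries, with permutations within group and run and adjustment over the 21 pairs. No pair passed, by Pearson's r (lowest adjusted p 0.177) or by Spearman's rho (lowest adjusted p 0.0602). Of the 21 coefficients 11 were positive and 10 negative, and 3 had an unadjusted p under 0.05. Among the 4 genes called higher, the 6 pairs had r between -0.22 and 0.37, 3 of each sign (lowest adjusted p 0.522). Kit and Flt3, the receptor pair, had r = -0.06 and rho = -0.26 (permutation p = 0.795 and 0.252, adjusted p = 0.795 and 0.529). Without centring, r of Kit and Flt3 was 0.45 (adjusted p = 0.109), a value that includes the difference between groups.

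**Figure D4:**
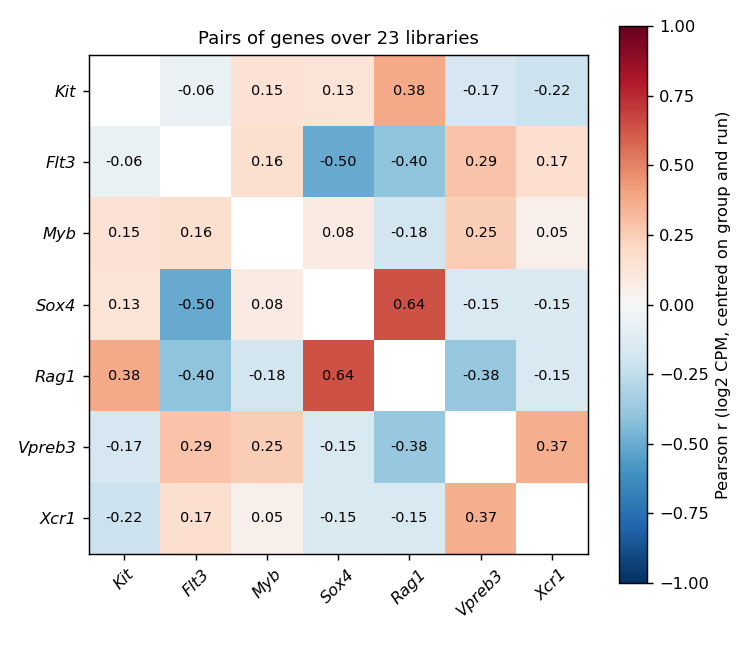
Pearson r of each pair of genes over 23 libraries, from log2 CPM centred on group and run (red positive, blue negative). Sox4 and Rag1 have the highest value, 0.64, Flt3 and Sox4 the lowest, -0.50, and the pairs among Kit, Flt3, Vpreb3 and Xcr1 lie between -0.22 and 0.37.

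The highest coefficient was that of Sox4 and Rag1 (r = 0.64, rho = 0.66, permutation p = 0.00842 and 0.00573, adjusted p = 0.177 and 0.0602). It was called when T cell sufficient lymphoma 2, with 2.44 CPM of Sox4 and no Rag1 read, was left out (r = 0.83, adjusted p = 0.00252). Leaving out the 2 libraries farthest from the median of Sox4 gave r = 0.47 (adjusted p = 0.381), so the value rests in part on those libraries, T cell deficient lymphoma 9 and T cell sufficient lymphoma 12, which are low in both genes. It was 0.89 in T cell deficient lymphomas alone (n = 11, permutation p = 0.00366, adjusted p = 0.0769) and 0.46 in T cell sufficient lymphomas alone (n = 12, permutation p = 0.156, adjusted p = 0.617). Within runs it was 0.58 in run 1 and 0.82 in run 2. The differences between these values were not tested. The lowest coefficient was that of Flt3 and Sox4 (r = -0.50, rho = -0.64, permutation p = 0.0207 and 0.00377, adjusted p = 0.217 and 0.0602).

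Rag1 did move with other genes of the precursor stage. Set against the 14 other tested genes of the pro-B and pre-B list, a look added after the values were seen, the 7 genes gave 98 relations, and 3 passed. All 3 were with Rag1. Rag1 and Dntt, which encodes the polymerase that adds bases at V(D)J joints, had r = 0.95 and rho = 0.93 (n = 23, permutation p = 1e-05, the smallest 100000 permutations can give, and 2e-05, adjusted p = 0.00049 and 0.00098). Rag1 and Vpreb1, one chain of the surrogate light chain, had r = 0.89 and rho = 0.90 (adjusted p = 0.00049 and 0.00098). Rag1 and Igll1, the other chain, had r = 0.84 and rho = 0.83 (adjusted p = 0.00131 and 0.00457). Sox4, Kit, Flt3, Myb, Vpreb3 and Xcr1 gave no called relation with these 14 genes over all 23 libraries (lowest adjusted p not called 0.153). In run 1 alone Sox4 and Bst1, a surface enzyme gene of marrow stroma and early B cells, were called (n = 12, r = 0.87, rho = 0.84, permutation, adjusted p = 0.00318 and 0.0468), while in run 2 alone their r was -0.12 (n = 11, permutation, adjusted p = 0.948).

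No single library decided the 3 calls. Leaving out each library in turn kept r between 0.94 and 0.97 for Dntt, 0.86 and 0.93 for Vpreb1 and 0.80 and 0.91 for Igll1, and without T cell sufficient lymphomas 2 and 8, the farthest from the Rag1 median, r was 0.94, 0.87 and 0.80. In T cell deficient lymphomas alone r was 0.93, 0.94 and 0.74, which did not pass (n = 11, permutation, adjusted p = 0.257, 0.229 and 0.308), and in T cell sufficient lymphomas alone it was 0.97, 0.86 and 0.90, which did (n = 12, permutation, adjusted p = 0.00196, 0.0320 and 0.0103). In run 1 r was 0.96, 0.92 and 0.90 (called), and in run 2 it was 0.93, 0.81 and 0.68 (not called, adjusted p = 0.373, 0.388 and 0.420). Levels were low throughout. T cell sufficient lymphoma 5 had 9.73 CPM of Dntt, 9.40 of Vpreb1 and 6.91 of Igll1 beside its 16.2 CPM of Rag1, and T cell deficient lymphoma 7 had 5.64, 5.17 and 3.99 CPM beside 7.34 CPM of Rag1. T cell deficient lymphoma 9, with no Rag1 read, had 0.0730, 0.110 and 0 CPM of the same 3 genes.

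None of the 3 passed the test between the groups. Dntt averaged 1.78 CPM ± 1.55 in T cell deficient and 1.72 CPM ± 2.82 in T cell sufficient lymphomas (edgeR adjusted p = 0.670). Vpreb1 averaged 1.69 CPM ± 1.46 in T cell deficient and 1.69 CPM ± 2.67 in T cell sufficient lymphomas (adjusted p = 0.679). Igll1 averaged 1.08 CPM ± 1.14 in T cell deficient and 1.21 CPM ± 1.96 in T cell sufficient lymphomas (adjusted p = 0.849). Vpreb3 did not follow them. Its coefficient with Rag1 was -0.38 (rho = -0.38, permutation p = 0.0667 and 0.113, adjusted p = 0.350 and 0.395). With the mean log2 CPM of the monocyte and macrophage genes Rag1 had r = 0.60 and rho = 0.68 (permutation p = 0.0036 and 0.00142, adjusted p over the 56 relations 0.202 and 0.0795, not called). The part of other spleen or marrow cells in the level of Rag1 was not tested.

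**Figure D5:**
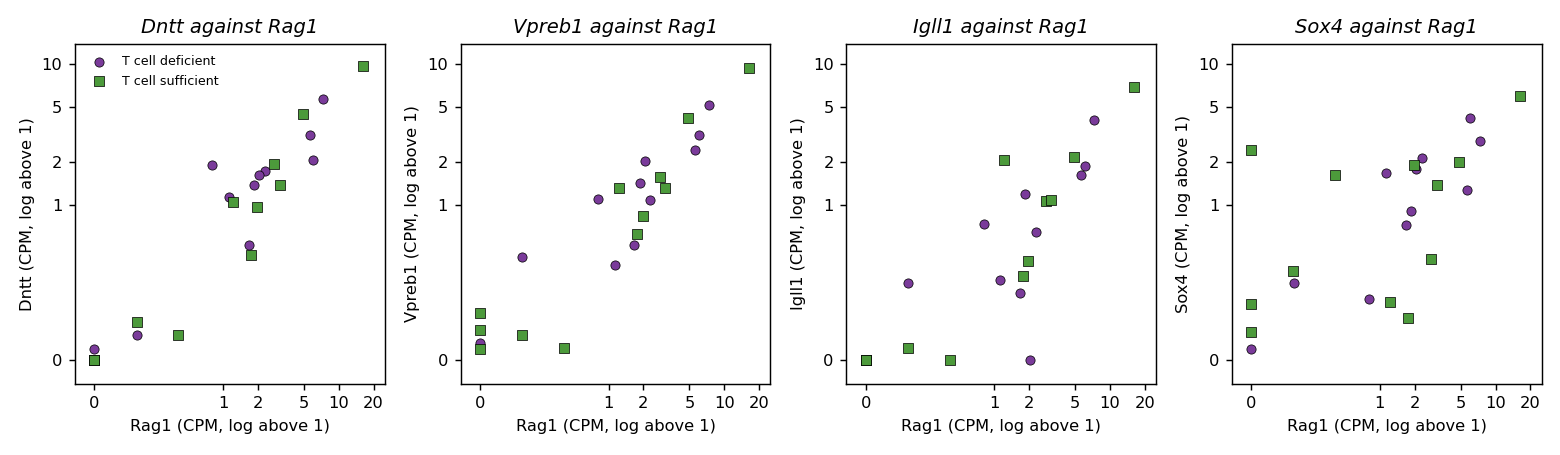
Dntt, Vpreb1, Igll1 and Sox4 against Rag1 in the 23 lymphomas (CPM after TMM scaling, linear from 0 to 1 and logarithmic above), with T cell deficient lymphomas as purple circles and T cell sufficient lymphomas as green squares. The first 3 panels run along a line up to T cell sufficient lymphoma 5, the highest in all 4 genes and in Rag1 at 16.2 CPM, and the fourth is looser.

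The promoters of these 4 genes are shown because the level of Rag1 was correlated with that of the other 3. Each is the 250 bases before the RefSeq start site (GRCm38.p6), read 5′ to 3′ on the strand of the gene. Matches on either strand to the E box CAGNTG, in the form that E proteins such as TCF3 and TCF12 bind, are in capitals. Positions are chr2:101649533-101649782 (minus strand) for Rag1, chr19:41029025-41029274 (plus strand) for Dntt, chr16:16869256-16869505 (minus strand) for Vpreb1 and chr16:16863986-16864235 (minus strand) for Igll1, whose start lies 5.27 kb from that of Vpreb1.
Rag1: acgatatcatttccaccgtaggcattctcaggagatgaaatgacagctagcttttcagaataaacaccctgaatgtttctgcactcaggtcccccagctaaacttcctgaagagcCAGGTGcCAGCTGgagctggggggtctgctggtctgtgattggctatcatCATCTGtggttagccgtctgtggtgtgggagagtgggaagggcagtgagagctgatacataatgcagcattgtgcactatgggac
Dntt: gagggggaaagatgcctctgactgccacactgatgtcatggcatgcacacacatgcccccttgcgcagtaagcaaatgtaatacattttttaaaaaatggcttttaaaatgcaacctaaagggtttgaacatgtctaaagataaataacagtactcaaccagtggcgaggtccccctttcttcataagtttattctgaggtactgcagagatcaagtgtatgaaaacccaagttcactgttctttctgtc
Vpreb1: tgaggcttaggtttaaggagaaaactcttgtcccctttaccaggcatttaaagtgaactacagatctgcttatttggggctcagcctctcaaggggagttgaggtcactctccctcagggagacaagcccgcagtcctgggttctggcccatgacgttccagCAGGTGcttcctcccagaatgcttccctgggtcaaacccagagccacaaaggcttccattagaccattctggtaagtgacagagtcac
Igll1: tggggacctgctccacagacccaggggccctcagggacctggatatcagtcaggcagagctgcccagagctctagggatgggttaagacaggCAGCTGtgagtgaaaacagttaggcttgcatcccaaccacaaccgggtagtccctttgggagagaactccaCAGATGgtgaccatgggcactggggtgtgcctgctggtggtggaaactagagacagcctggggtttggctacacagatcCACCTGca
The Rag1 and Igll1 windows hold 3 matches each, the Vpreb1 window holds 1 and the Dntt window holds none. Of 27025 promoter windows of this length, 44.5% hold at least 1 match. Sox4, Flt3 and Vpreb3 had 1 match each, and Kit, Myb and Xcr1 had none.

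Vpreb3 has an octamer match in its RefSeq promoter window besides its 1 E box match, which is not marked here. Whether either match bears on the level of Vpreb3 was not tested. The window at chr10:75948050-75948299 (plus strand) is shown with the octamer ATTTGCAT, the site of OCT factors in B cell promoters, in capitals.
Vpreb3: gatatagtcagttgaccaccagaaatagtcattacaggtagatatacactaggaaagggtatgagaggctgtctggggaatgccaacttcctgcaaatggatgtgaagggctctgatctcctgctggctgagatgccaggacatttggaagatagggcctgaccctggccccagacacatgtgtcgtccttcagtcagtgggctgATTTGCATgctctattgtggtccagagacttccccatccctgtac
The octamer lies 45 bases before the RefSeq start and is held, on either strand, by 1.61% of the windows. The window lies inside the GENCODE span of Vpreb3 (75943057 to 75949657), which begins further upstream. No other of the 7 genes and none of Dntt, Vpreb1 and Igll1 had it. Of 3 further motifs searched on both strands, CCAAT (34.5% of windows) was found in Sox4, Rag1 and Xcr1, TCCCNNGGG (5.53%) in Kit, and TGGGAA (21.5%) in Sox4 and Rag1. These matches describe letters in the windows and were not tested for binding.

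The authors' deposited table, a comparison of the same libraries with limma per the submitters' processing notes, gave log2 fold changes of 3.24 for Kit, 1.70 for Flt3 and 1.60 for Xcr1, with adjusted p values of 0.0242, 0.00455 and 0.0365. There, 11% of all genes were called higher. Rag1 and Sox4 had log2 fold changes of 0.43 and -0.02 in the authors' deposited table and adjusted p values of 0.856 and 0.987.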

How the data were processed

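Messenger RNA was measured in 23 lymphoma libraries of 24 samples. The authors deposited raw counts per gene, with CPM (the count over the library total) beside them, and a table of log2 fold changes, p-values and adjusted p-values of their own comparison. The deposited CPM equal count over total within 0.0005. Per the submitters' processing notes, mm10 and GRCm38 and limma were used. The aligner, counter, annotation and strand setting were not given in the sources used here. Reads shared with genes that overlap Rag1, Flt3, Myb, Sox4 and Vpreb3 in GENCODE cannot be assigned with certainty. A repeat library of T cell sufficient lymphoma 1 was left out, and whether the column of that lymphoma includes it is not known. The column of T cell sufficient lymphoma 4 was matched by its number, since its suffix differs from the label. Every gene listed exceeds 1 CPM in at least 7 libraries. Kit and Xcr1 did not reach this level in T cell sufficient lymphomas alone, where they averaged 0.835 and 0.979 CPM. They reached it only with the T cell deficient libraries, where they are high. If this level was the rule for listing, genes low in both groups are missing, and the shares of genes called carry this limit.

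Counts were tested with edgeR 4.0.16 in R 4.3.3 (filterByExpr, which removed 120 genes, TMM, robust quasi-likelihood test, terms for run and group). Adjusted p values are Benjamini-Hochberg over 11020 genes, with a threshold of 0.05. The code was tested on simulated counts. CPM in the text are TMM-scaled. Correlations used log2 CPM with a prior count of 2 and 100000 permutations. Within runs every split was enumerated. Coordinates are from GENCODE M21 (GRCm38) and promoters from RefSeq (GRCm38.p6), which matched all 7 genes.

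The genes and lists were chosen with earlier results of these data known. Named from each list were up to 3 called genes with the smallest p, and 2 genes of the lists are not reported here by name. Kitl, Flt3l, Dntt, Vpreb1, Igll1, Bst1, Lck, Cd3g, Cd5, Cd8b1, Wdfy4, Irf8, Pax5, Ms4a1 and Cd3e are named outside that rule. Of these, Dntt, Vpreb1, Igll1, Bst1, Lck, Cd3g, Cd5, Cd8b1, Wdfy4 and Irf8 were chosen after their values were seen. Alternatives were other scalings, filters, thresholds, DESeq2 1.42.0, limma-voom (limma 3.58.1), no run term, single runs, other centrings, the replicate number as a block and each library left out.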

Additional observations from a re-analysis of the deposited data

Results flagged for a closer look

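A single library stood apart in 5 of the 28 sets of libraries of 1 gene, group and run, each time as the highest. The rule, Dixon's gap over range, flags about 1 in 20 sets of normally distributed values. It was applied to CPM without a log scale, where this rate may not hold. In T cell deficient lymphomas of run 1, Kit was 6.65 CPM in lymphoma 10, with 1.83 CPM the next highest. In the same 5 libraries Xcr1 was 20.1 CPM in lymphoma 8, with 4.5 CPM the next highest. Among the 7 T cell sufficient lymphomas of run 1, Flt3 was 18.7 CPM in lymphoma 4 (next highest 6.9 CPM). Lymphoma 5 of that set stood apart in 2 genes, with 6 CPM of Sox4 (next highest 2.44 CPM) and 16.2 CPM of Rag1 (next highest 4.87 CPM).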

How the results depend on the processing

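DESeq2 size factors, library totals, upper quartile scaling and DESeq2 itself changed no call among the 7 genes. When a gene had to average a log2 CPM of 1 or more, 2 of the 4 called genes were kept for testing, so 2 were called, and 2 passed a threshold of 0.01, which Flt3 (1.47) and Vpreb3 (1.05) missed. In limma-voom the log2 fold changes were 1.04 for Myb (called), -0.022 for Sox4 and 0.85 for Vpreb3 (not called). Without the run term they were -0.050 for Rag1 and 0.88 for Vpreb3 (not called). In run 1 alone 0 genes of the 7 or of the lists passed in either direction, with Kit at 2.06, Flt3 at 1.00, Vpreb3 at 0.97, Xcr1 at 2.47, Sox4 at -0.13 and Rag1 at -0.043. In run 2 alone 21 listed genes were higher and 16 lower, Myb was called (1.44) and Vpreb3 was not (1.13). Over all genes, 629 were higher and 730 lower in run 2 alone and 465 and 562 at the threshold of 0.01, against 1163 and 1285. Same-numbered lymphomas of the groups did not deviate together (11 correlations, median 0.0363, 4 over 0.1, and 2 of 11 T cell deficient libraries closest to their own number). No pairing by number was seen, but a pairing with little effect on expression could be missed by this check. With the replicate block Myb was called (1.06), Sox4 was at -0.060 and 893 genes were higher and 931 lower.

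Leaving out each library gave log2 fold changes of 2.56 to 3.17 for Kit, 1.34 to 1.76 for Flt3, 0.65 to 1.02 for Myb, -0.052 to 0.54 for Sox4, 0.11 to 0.83 for Rag1, 0.88 to 1.15 for Vpreb3 and 1.81 to 2.50 for Xcr1, with 4 to 5 genes called. Between 0 and 1 pair was called, and r ranged from 0.52 to 0.83 for Sox4 and Rag1 and from -0.26 to 0.0031 for Kit and Flt3. By r, the pair Sox4 and Rag1 was also the 1 pair called when centred on group alone (r = 0.66), not centred (r = 0.66) and without the 2 libraries farthest in Rag1 (r = 0.83). By rho, 2 further pairs were called when not centred, which includes the difference between groups: Flt3 and Xcr1 (rho = 0.70, adjusted p = 0.00609) and Vpreb3 and Xcr1 (rho = 0.65, adjusted p = 0.00665). Kit and Flt3 had r = 0.022 centred on group alone, 0.45 not centred, -0.30 in T cell deficient lymphomas alone, 0.054 in T cell sufficient lymphomas alone, 0.23 in run 1 and -0.52 in run 2 (there rho = -0.72, n = 11, permutation p = 0.0213, adjusted p = 0.224). Rag1 with Dntt, Vpreb1 and Igll1 did not pass in T cell deficient lymphomas (r = 0.93, 0.94 and 0.74) or in run 2 (0.93, 0.81 and 0.68). The rho of Sox4 and Rag1 passed with a prior count of 5 (adjusted p = 0.0465, as did Flt3 and Sox4 at rho = -0.64 with the same adjusted p), with the library total taken out (0.0424) and in T cell deficient lymphomas alone (0.0466). Fits of 1 run or group hold fewer libraries, and the cause of the other changes was not tested. Low counts limit Sox4, Rag1 and Kit, where up to 4 libraries held 3 counts or fewer.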

Other observations

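Tested genes that average a log2 CPM of 1 or more were searched for the ones most like each of the 7. The measure was Pearson r of log2 CPM centred on group and run over 23 libraries, given with no test. The limit left out low genes of the precursor stage such as Dntt, Vpreb1 and Igll1. The search therefore cannot show whether such genes are the most alike. Myb went with Cecr2 (r = 0.85), a chromatin remodelling factor gene, Dcbld1 (0.85) and Phgdh (0.83), the first enzyme of serine synthesis. Cecr2 averaged 246 CPM in T cell deficient and 90.2 CPM in T cell sufficient lymphomas (edgeR adjusted p = 0.0367), and Phgdh averaged 236 CPM in T cell deficient and 170 CPM in T cell sufficient lymphomas (adjusted p = 0.0260), and both were called higher. Flt3 went with Brd7 (0.78), Sept10 (0.76) and Gnb1 (0.75), and of these Sept10, a septin gene, was higher at 19.4 CPM in T cell deficient and 10.9 CPM in T cell sufficient lymphomas (adjusted p = 0.00632).

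Kit went with Lix1l (0.70), 2810002D19Rik (0.70) and A930015D03Rik (0.68), and none of these was called. Rag1 went with Il18bp (0.81), the gene of an inhibitor of interleukin 18, Ipo8 (0.78) and Itgad (0.77). These values were below the r of Rag1 with Dntt, Vpreb1 and Igll1, whose mean levels are under the limit for this search. Sox4 went with Smarcal1 (0.75), Pde2a (0.74) and Dpysl2 (0.74), Vpreb3 with Utp11l (0.85), Tbc1d31 (0.80) and Larp1 (0.76), and Xcr1 with Cers5 (0.77), Iars (0.77) and 2210016F16Rik (0.76).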
